A study of Mus musculus with 15 samples.

Results

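Mitochondrial ribosomal proteins are the protein part of the ribosome that works inside mitochondria. The genes described here were the protein-coding genes of the GENCODE M21 mouse annotation whose symbol starts with Mrpl or Mrps followed by a digit. The rule used names only and no measured value. It found 78 genes, 49 named Mrpl and 29 named Mrps, among 25731 genes in the files and 13967 tested genes. All 78 were measured in every library and all 78 passed the filter on low counts. The annotation also names 5 pseudogenes of Mrpl23, Mrpl48 and Mrps36, which are not members, and reads from such near copies could have been counted under these 3 genes.

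RNA from 15 livers of C57BL/6 mice was sequenced, with 5 libraries for each of 3 diets. Feeding lasted 3 days with either a ketogenic or a high-fat diet, both begun at 12 weeks of age, or with chow as the control. For chow mice no age is stated, nor is any sex or diet composition, and the design has no allele and no drug. Libraries were treated as separate mice, and p-values measure the spread between these libraries. In this mixture of liver cells, fewer cells of a type and less RNA per cell cannot be told apart.

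Mitochondria keep a small genome of their own, and its protein-coding genes are translated by a dedicated ribosome with a large and a small subunit. The large subunit joins amino acids, and the small subunit reads the messenger RNA. All of its proteins are encoded in the nucleus, made in the cytosol and imported, and its products are core subunits of the respiratory chain and of ATP synthase. In liver, which is rich in mitochondria, the respiratory chain takes up the electrons that fatty acid oxidation releases. The names do not always follow the structure. Mrps30 and Mrps18a sit in the large subunit, and Mrps36 is known as a part of the 2-oxoglutarate dehydrogenase complex of the citric acid cycle. By known structure, 51 members belong to the large subunit, 26 to the small subunit and 1, Mrps36, to neither. A counterpart in bacterial ribosomes is known for 47 members, and 30 are found only in mitochondrial ribosomes.

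Promoter sequences are shown for 4 members that turn up repeatedly in the results below. Mrps10, Mrpl43 and Mrpl1 were lower than chow on at least 1 of the diets, and Mrpl18 was the sole member to rise on the high-fat diet. Each sequence gives the 150 bases before the RefSeq transcription start in build GRCm38.p6, read 5′ to 3′ on the strand of the gene. Capitals mark motif matches on either strand, the CCAAT box (CCAAT, read as ATTGG on the other strand) and the ETS motif (CCGGAAG, or CTTCCGG on the other strand), which is the kind of site that the factor NRF2/GABP is known to bind.
Mrps10: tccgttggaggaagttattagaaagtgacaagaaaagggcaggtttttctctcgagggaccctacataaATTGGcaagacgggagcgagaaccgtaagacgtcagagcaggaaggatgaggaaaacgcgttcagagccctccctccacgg
Mrpl43: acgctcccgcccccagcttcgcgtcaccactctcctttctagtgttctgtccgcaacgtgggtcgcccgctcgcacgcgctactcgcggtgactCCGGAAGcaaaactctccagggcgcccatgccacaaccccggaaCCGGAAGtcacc
Mrpl1: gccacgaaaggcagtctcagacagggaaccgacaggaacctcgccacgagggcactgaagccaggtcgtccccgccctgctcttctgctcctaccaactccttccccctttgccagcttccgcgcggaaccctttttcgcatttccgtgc
Mrpl18: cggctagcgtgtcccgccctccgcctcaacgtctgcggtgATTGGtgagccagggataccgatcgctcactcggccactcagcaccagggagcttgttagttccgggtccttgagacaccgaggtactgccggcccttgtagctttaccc
The stretch of Mrps10 lies at chr17:47369047-47369196 on the plus strand, that of Mrpl43 at chr19:45006443-45006592 on the minus strand, that of Mrpl1 at chr5:96209965-96210114 on the plus strand and that of Mrpl18 at chr17:12916092-12916241 on the minus strand. In GENCODE M21 the genes Mrps10, Mrpl1 and Mrpl18 begin further upstream than the RefSeq start, so that their stretches lie wholly within the annotated genes. Mrpl43 carried 2 ETS matches, Mrps10 and Mrpl18 each 1 CCAAT match, and Mrpl1 no match to the motifs searched.

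RefSeq promoter windows of 300 bases (250 before to 50 after the start) were found for 69 of the 78 members, in 75 windows. The ETS motif was in 34.7% of the member windows and in 8.86% of all 32851 windows of that length in the table. The motif of NRF1 (GCGCANGCG, or CGCNTGCGC on the other strand), a regulator of nuclear genes for mitochondria, was in 21.3% against 6.25%. A YY1 motif (AAGATGGCG, or CGCCATCTT) was in 10.7% against 1.4%. The CCAAT box was in 40% against 37.4%, and the E-box (CACGTG, the same on both strands) was in 9.33% against 7.15%. The shares count windows and not genes. Mrpl2, with CCAAT and E-box matches in each of its windows, was counted more than once. These shares describe letters in a window and no binding was measured. None of the 5 motifs contains another, and neighbouring matches could share bases.

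Levels between genes were compared in TPM, the deposited abundance per transcript length, summed per gene. The median member stood at 24.6 TPM over the 15 libraries, against 4.86 TPM for all tested genes. Mrpl30 and Mrps21 were highest, both at 101 TPM, followed by Mrpl42 at 75.4 TPM. In chow livers Mrpl30 was at 99.2 ± 8.42 TPM, Mrps21 at 103 ± 6.88 TPM and Mrpl42 at 73.6 ± 5.84 TPM (SD, n = 5). Mrpl30 and Mrps21 did not differ beyond their spread and both were above Mrpl42. Mrps30 was lowest at 5.74 TPM, below Mrpl19 at 9.07 TPM and Mrps11 at 9.84 TPM. In chow livers these 3 were at 5.51 ± 0.27, 8.7 ± 1.01 and 9.66 ± 0.269 TPM (SD, n = 5), and Mrpl19 and Mrps11 overlapped. Read counts per member and library ran from 184 to 2845. Members are short, with a median length of 932 bases against 2428 for all tested genes. They varied little among chow livers, with a median coefficient of variation of 7.62% against 11.3% for all tested genes.

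**Figure D1:**
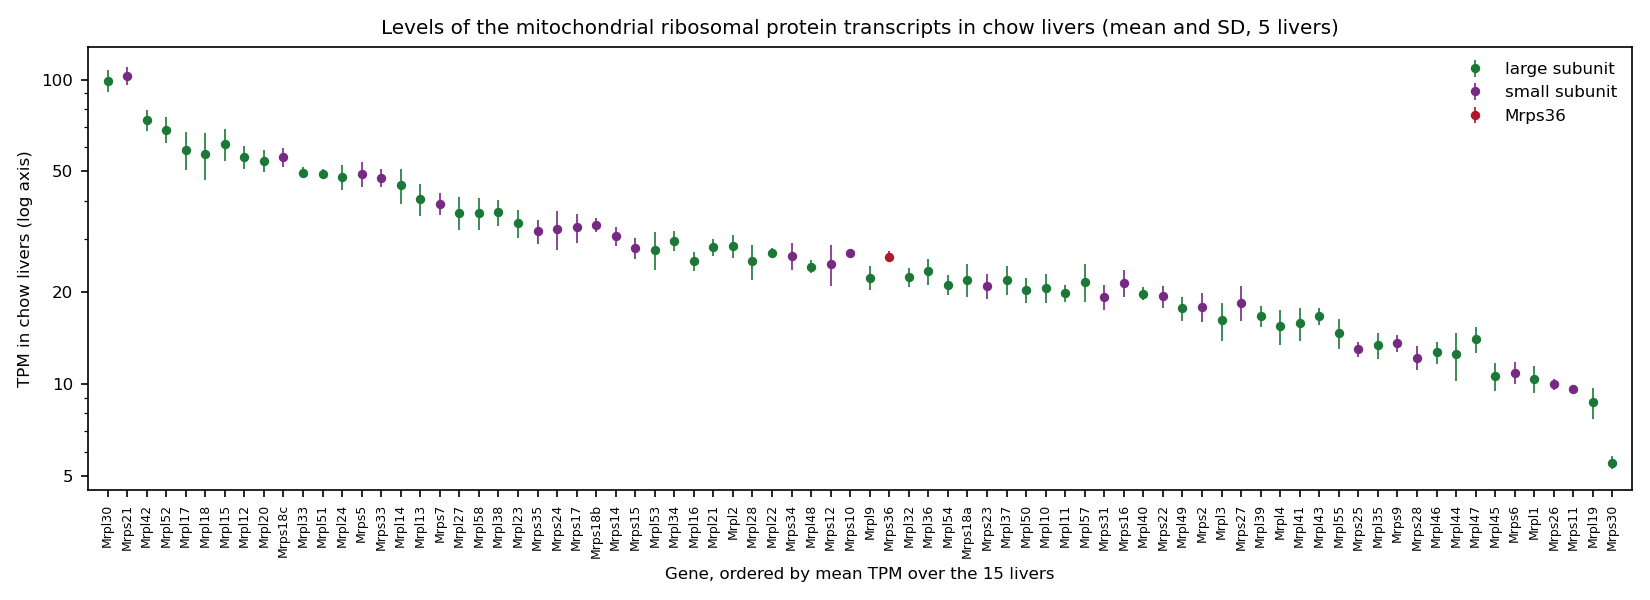
TPM of each of the 78 genes in chow livers (log axis; points are means and bars SD of 5 livers), ordered by mean TPM over the 15 livers and coloured by the subunit that holds the protein. Mrpl30 and Mrps21 lie near 100 TPM and Mrps30 lies lowest at 5.51 TPM, with large and small subunit genes mixed along the whole range.

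The depth of the libraries was 34707597 to 50914494 reads on the ketogenic diet, 30121672 to 44764257 on the high-fat diet and 30190806 to 43688344 on chow. The 2 shallowest high-fat libraries, 12 and 14, had ratios of effective to full transcript length of 0.8827 and 0.8884, while the other 3 lay between 0.9184 and 0.9329. The ketogenic libraries lay at 0.8733 to 0.8807 and the chow libraries at 0.8933 to 0.9253. The part of this difference in the results was not tested, and counts that move without libraries 12 and 14 are given beside the main ones. Hepatocyte markers were present in all libraries, and the 10 markers summed to 95400 to 104000 CPM on the ketogenic diet, 83900 to 85800 on the high-fat diet and 83700 to 102000 on chow. The 10 Kupffer cell markers summed to 151 to 243, 116 to 221 and 151 to 186 CPM, the 8 endothelial markers to 184 to 234, 145 to 274 and 132 to 200, and the 8 stellate cell markers to 191 to 234, 138 to 202 and 150 to 214, in the same order. The 7 B cell markers summed to 3.35 to 4.39, 4.43 to 9.51 and 5.68 to 16.3 CPM, and 6 of them fell on the ketogenic diet against chow. Ketogenic against high-fat 4 of the 7 fell, and 1 without libraries 12 and 14. High-fat against chow 1 of the 7 fell. Of the Kupffer cell markers, 3 of 10 were called higher in ketogenic than in high-fat livers, where all 10 estimates were above 0 (median 0.33), and all 10 estimates were below 0 in high-fat against chow livers (median -0.25), with 0 calls by edgeR, 2 lower at an unadjusted p under 0.05 and 1 fall each by DESeq2 and limma-voom. Ketogenic against chow, 2 of 8 stellate and 1 of 8 endothelial markers rose, with all 8 endothelial estimates above 0, and 2 of 10 hepatocyte markers fell. There 4 stellate estimates were above and 4 below 0 (median -0.05), and 3 hepatocyte estimates were above and 7 below 0. All 5 erythroid markers fell in that comparison, with sums of 731 to 1080 CPM in chow and 358 to 554 CPM in ketogenic livers. Cholangiocyte, T cell and neutrophil markers summed to at most 39, 3.47 and 1.7 CPM in any library. Of 5 cholangiocyte markers 1 fell ketogenic against high-fat, and 0 without library 9. All 5 estimates were below 0 ketogenic against chow, with 0 calls by edgeR and 1 fall by DESeq2. Of 5 tested T cell markers 1 fell ketogenic against chow and 1 ketogenic against high-fat. Markers of pancreas, gut, muscle and fat summed to 207 to 253, 83.2 to 113 and 57.3 to 61.9 CPM. Of the latter 10 markers 1 passed the filter on low counts. It was called higher in all 3 comparisons, by 1.87 ketogenic against chow, 0.70 high-fat against chow and 1.17 ketogenic against high-fat. No marker in these lists was at 0 in all libraries, and the part of these cells in the members' values was not tested.

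As a set, the members took 0.173 ± 0.00663% of the reads in ketogenic livers, 0.158 ± 0.00453% in high-fat livers and 0.171 ± 0.00327% in chow livers (SD, n = 5 each). High-fat libraries ranged from 0.153 to 0.163% and lay below all others, while the ketogenic range of 0.164 to 0.182% enclosed the chow range of 0.168 to 0.176%. After TMM scaling, which corrects library totals for a few very abundant genes, the shares were 0.168 ± 0.00497%, 0.16 ± 0.0111% and 0.174 ± 0.00783%, and all 3 ranges overlapped. Summed TPM ranked the diets as the unscaled shares did, and not as the TMM-scaled shares. It was 2770 ± 131 in ketogenic livers, 2100 ± 214 in high-fat livers and 2330 ± 149 in chow livers. The ketogenic libraries, at 2590 to 2930 TPM, then lay above all others. TPM divides by the effective lengths that differed between the diets, and the part of this in these sums was not tested. The mean TPM of large subunit genes over that of small subunit genes was 1.1 ± 0.0245, 1.09 ± 0.0245 and 1.06 ± 0.0327 in the same order, with overlapping ranges.

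Single genes were compared with edgeR's quasi-likelihood test on estimated counts, fitted over all 15 libraries, and a gene was called when its Benjamini-Hochberg adjusted p over all tested genes was under 0.05. Values per liver are TMM-normalised CPM (reads of a gene scaled to a fixed library size), listed in the order of the label numbers, and the comparisons are log2 fold changes ± SE.

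Ketogenic livers held slightly less transcript of 10 mitochondrial ribosomal protein genes than chow livers and the other 68 did not pass the test. Mrps10, Mrpl34, Mrps36, Mrpl2, Mrpl36 and Mrps16 had the largest falls and fell by 16.6 to 23.9%. The share called, 12.8% of the members, lay below the 30.8% of all genes called in this comparison, and 14.6% of all genes were called lower. By edgeR's test 0 members rose, against 16.2% of all genes called higher, where 5 were higher and 17 lower at an unadjusted p under 0.05. DESeq2 called 2 members higher and limma-voom 1. The median log2 fold change was -0.07, against -0.01 for all genes, with members between -0.39 and 0.18. The median turned to 0.04 with each library's trend on gene length removed and was 0.00 with scaling by library totals alone. All 78 confidence intervals (95%) lay within 1.5-fold of no change, and 73 estimates lay within 1.2-fold.

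Mrps10, a protein of the head of the small subunit with a bacterial counterpart (chromosome 17, 47368887 to 47381417, plus strand), showed the largest fall. Chow livers had 26.4, 23.6, 24.8, 24.4 and 28.5 CPM. Ketogenic livers had 18.9, 19.0, 18.2, 19.9 and 21 CPM, all below the lowest chow liver. The log2 fold change was -0.39 ± 0.059 (adjusted p = 5.31e-05). Mrpl34, a small protein of the large subunit (chromosome 8, 71464959 to 71465747), had 15.2, 12.5, 13.7, 11.7 and 13.7 CPM in chow livers and 11.5, 9.03, 10.6, 9.91 and 10.9 CPM in ketogenic livers. The groups did not overlap, although the highest ketogenic liver came close to the lowest chow liver, and the change was -0.36 ± 0.084 (adjusted p = 0.00275). Mrpl2, a core protein next to the catalytic centre of the large subunit, had 27.4, 23.9, 21.2, 21.9 and 25 CPM in chow livers. On the ketogenic diet it had 19.6, 19.9, 18.2, 19.9 and 20.4 CPM, again all lower than in chow livers, with a change of -0.28 ± 0.068 (adjusted p = 0.00352).

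Mrpl43, found only in mitochondrial ribosomes, fell from 20.6, 20.6, 19.5, 18.8 and 21 CPM in chow livers to 17.6, 17.0, 16.9, 16.9 and 16.2 CPM (-0.25 ± 0.062, adjusted p = 0.0048). Mrps36, the member that is no ribosomal subunit by structure, fell from 11.2, 10.2, 10.4, 9.34 and 12.8 CPM to 8.5, 8.17, 8.7, 8.7 and 8.39 CPM (-0.34 ± 0.085, adjusted p = 0.0049). In both genes the groups did not overlap. Mrpl4, which lines the exit tunnel of the large subunit, changed by -0.24 ± 0.066 (adjusted p = 0.00894), and Mrpl36, another small protein of the large subunit, by -0.28 ± 0.081 (adjusted p = 0.0126). These 7 were the members whose ketogenic livers all lay below chow, as 10.1% of all genes did. Over both directions 8 of 78 members had separate groups, against 22.3% of all genes.

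Mrps16 (-0.26), Mrps18b (-0.19) and Mrpl38 (-0.19) fell with overlapping groups and adjusted p of 0.0195, 0.0273 and 0.0336. These calls were lost in 6, 8 and 12 of the 27 other settings. Leaving out ketogenic library 4 or chow library 15 ended each of the 3, ketogenic library 8 or chow library 18 ended that of Mrps18b, and ketogenic library 2, 3 or 6 or chow library 16 or 17 that of Mrpl38. On average 93.9% of the Mrps16 reads were assigned to a transcript typed as not coding, so its value rests mostly on this transcript. Mrpl45, which anchors the ribosome at the inner membrane, was the sole member whose ketogenic livers (25.6 to 27.7 CPM) all lay above chow livers (23.6 to 25.2 CPM), where 12.2% of all genes did so. Its change of 0.15 ± 0.056 (adjusted p = 0.05) just missed the threshold and passed under 9 of the 27 other settings. The calls of Mrps10, Mrpl34, Mrps36, Mrpl2 and Mrpl43 were kept under all 27 other settings tried, and scaling by library totals alone left 6 falls and gave 6 rises. That scaling also shifted the calls over all genes, from 2258 higher and 2038 lower to 2753 higher and 1265 lower.

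**Figure D2:**
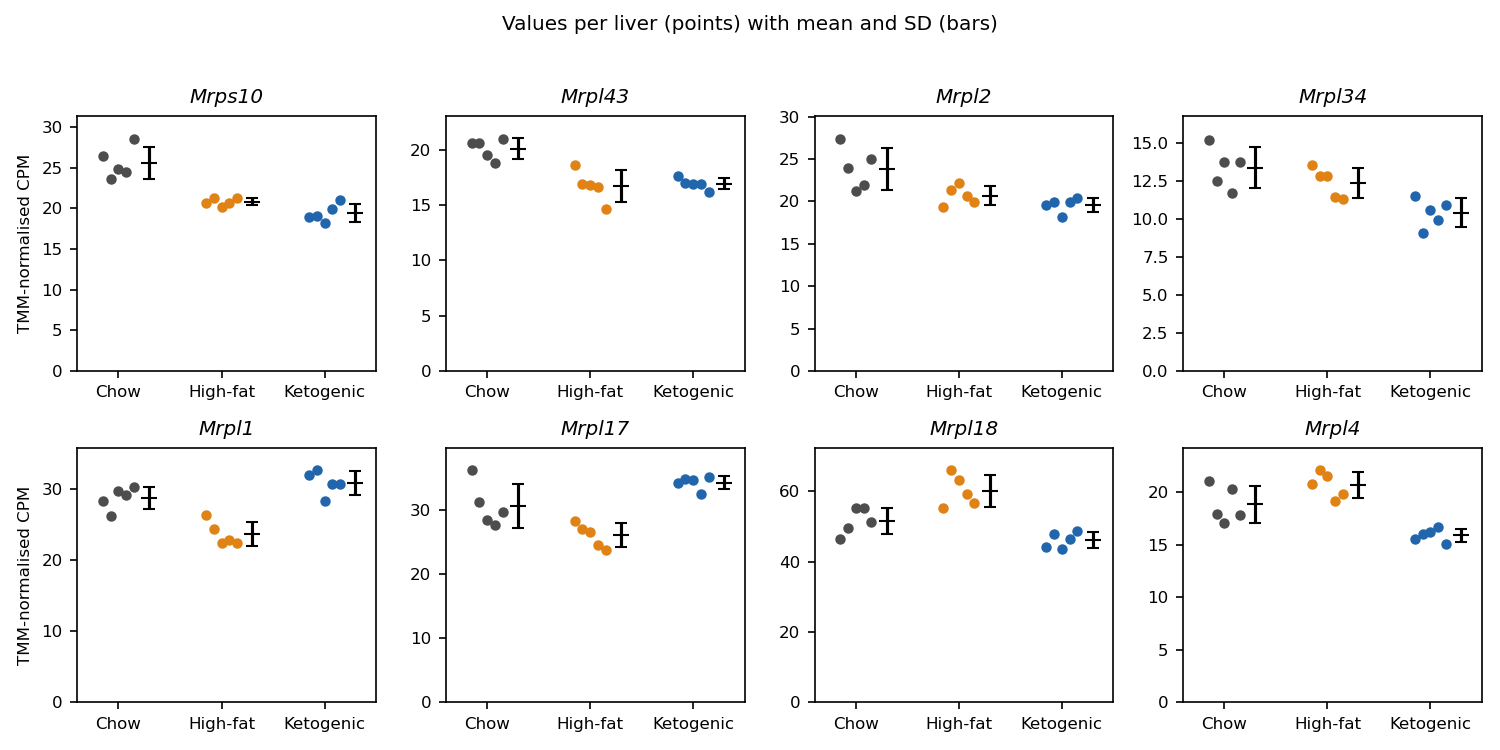
TMM-normalised CPM of 8 genes in each liver (points, 5 per diet; bars are mean and SD; every axis starts at 0). In the top row the ketogenic livers of Mrps10, Mrpl43, Mrpl2 and Mrpl34 all lie below the chow livers, and in the bottom row Mrpl1 and Mrpl17 are higher and Mrpl18 and Mrpl4 lower in ketogenic than in high-fat livers.

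On the high-fat diet 12 members fell against chow and 1 rose. The falls of Mrps10, Mrpl1, Mrpl43 and Mrpl15 had the smallest adjusted p, and Mrpl18 rose. The members called made up 16.7%, near the 15.6% of all genes called, while 7.32% of all genes were called lower and 8.3% higher. The median log2 fold change was -0.12, against 0.01 over all genes, and 70 of 78 estimates lay below 0. With the length trend removed the median was -0.04, and without libraries 12 and 14 it was -0.08. At an unadjusted p under 0.05, 31 members were lower and 1 higher. All 78 confidence intervals again lay within 1.5-fold.

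The number of falls depended on single libraries. Without high-fat library 9 it was 29, without library 11 it was 7, and without library 12 or without library 14 it was 4. Leaving out both 12 and 14, a choice made after seeing the data, gave 2 falls (Mrps10 and Mrpl1) and no rise, and without chow library 15 or 19 there were 5 and 7 falls. With each library's trend of counts on gene length removed, 3 fell and 3 rose.

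Mrps10 had 20.6, 21.3, 20.2, 20.7 and 21.2 CPM in high-fat livers, a narrow group that lay below all chow livers (-0.30 ± 0.059, adjusted p = 0.0027). Mrpl1, a protein of the mobile stalk at the site where used transfer RNA leaves (chromosome 5, 96209493 to 96266727, plus strand), had 26.4, 24.4, 22.4, 22.8 and 22.5 CPM in high-fat livers. Chow livers had 28.4, 26.3, 29.7, 29.2 and 30.4 CPM, so that high-fat library 9 just reached the lowest chow liver, and the change was -0.28 ± 0.061 (adjusted p = 0.00501). These were the 2 calls kept under all 27 other settings.

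Mrpl43 (18.6, 16.9, 16.8, 16.6 and 14.6 CPM) lay below chow in every high-fat liver, with a change of -0.27 ± 0.062 (adjusted p = 0.00786). Leaving out libraries 12 and 14 took its adjusted p to 0.0569. Mrpl15, in the core of the large subunit, also lay below chow in every liver, at 33.6 to 40.7 CPM against 41.3 to 49.7 CPM (-0.27, adjusted p = 0.0136). Its call was lost when transcripts typed as coding alone were counted, with the length trend removed and without libraries 12 and 14, with adjusted p up to 0.127.

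Mrps22 and Mrps18c, both of the small subunit, varied widely among high-fat livers. Mrps22, in which inherited variants cause a shortage of the small subunit in humans, had 19.0, 18.8, 13.2, 16.8 and 12.9 CPM in high-fat livers and 18.2 to 21.3 CPM in chow livers (-0.31 ± 0.098, adjusted p = 0.039). Libraries 11 and 14 were low and the other 3 were near or within the chow range. Mrps18c changed by -0.29 (adjusted p = 0.0415), Mrps16 by -0.28 (0.0262), Mrps36 by -0.28 (0.0342), Mrpl52 by -0.26 (0.0486), Mrpl17 by -0.23 (0.0307), Mrps18b by -0.21 (0.0309) and Mrpl2 by -0.21 (0.047). Each of these calls, that of Mrps22 included, was lost under 6 to 19 of the 27 other settings. High-fat livers lay wholly below chow for 5 members and wholly above for 0, where 4.81% and 5.5% of all genes did so and 10.3% in either direction. They were Mrps10, Mrpl43, Mrpl15, Mrps18b and Mrps9, the last without a call.

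Mrpl18, a large subunit protein whose bacterial counterpart binds the smallest ribosomal RNA (chromosome 17, 12911349 to 12916345, minus strand), went the other way. High-fat livers had 55.3, 66.0, 63.2, 59.3 and 56.7 CPM and chow livers 46.6, 49.6, 55.2, 55.3 and 51.3 CPM. The 2 groups met at 55.3 CPM, and the change was 0.22 ± 0.063 (adjusted p = 0.0251). This call was lost in 7 of 27 settings, where the adjusted p reached 0.0717.

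Ketogenic and high-fat livers differed in 12 members, all named Mrpl with the settings reported. Mrpl1, Mrpl17, Mrpl16, Mrpl12, Mrpl50, Mrpl45, Mrpl9 and Mrpl10 were higher in ketogenic livers, and Mrpl18, Mrpl4, Mrpl36 and Mrpl34 were lower. The members called made up 15.4%, against 26.1% of all genes (13.1% higher and 13% lower). Members named Mrps had 0 calls of 29 by edgeR's test, with 3 higher and 0 lower at an unadjusted p under 0.05 and 0 calls by DESeq2 and by limma-voom. Without high-fat library 9 the same test called 4 of the 29 higher. Mrps22 passed in 5 of 27 settings, those with library totals only, the effective length offset, the length trend removed, and without high-fat library 9 or 10. A difference between the Mrpl and Mrps genes was not tested. The median over all members was 0.07 against -0.02 for all genes, and all 78 confidence intervals lay within 1.5-fold. Without high-fat libraries 12 and 14 the median over members was -0.00.

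Mrpl17, near the exit of the tunnel, had 34.2, 34.8, 34.7, 32.5 and 35.1 CPM in ketogenic livers and 28.3, 27.1, 26.6, 24.6 and 23.8 CPM in high-fat livers. The groups were far apart, with a change of 0.39 ± 0.069 (adjusted p = 4.84e-04). Mrpl1 had 32.0, 32.7, 28.3, 30.8 and 30.8 CPM in ketogenic livers, all above the highest high-fat liver at 26.4 CPM (0.38 ± 0.061, adjusted p = 1.85e-04). Mrpl16, which lies near the entry of transfer RNA, had 29.3, 27.1, 27.9, 25.9 and 29.6 CPM against 24.8, 23.8, 21.2, 19.9 and 19.6 CPM (0.35 ± 0.073, adjusted p = 0.00168). Mrpl50, found only in mitochondrial ribosomes, had 43.2 to 47.9 CPM against 35.2 to 41.8 CPM (0.29 ± 0.056, adjusted p = 9.26e-04). For these 4 genes the chow mean lay between the other means, at 30.7, 28.8, 24.7 and 41.7 CPM in the order given.

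The stalk of the large subunit, which recruits translation factors, includes Mrpl12 and Mrpl10, with Mrpl11 at its base. Mrpl12, which is also reported to bind the mitochondrial RNA polymerase, had 63.1, 58.8, 59.1, 56.5 and 62.3 CPM in ketogenic livers and 58.4, 52.4, 45.8, 43.9 and 42.1 CPM in high-fat livers. High-fat library 9 overlapped the ketogenic group and the others did not (0.31 ± 0.083, adjusted p = 0.0112), and without libraries 12 and 14 the adjusted p was 0.0996. Mrpl10 changed by 0.18 ± 0.054 (adjusted p = 0.022) and Mrpl11 by 0.19 ± 0.071 (0.0559, not passed). The call of Mrpl10 was lost in 4 of 27 settings, on coding transcripts only, without ketogenic library 2, without high-fat library 14 and without 12 and 14, with adjusted p up to 0.115. Mrpl11 passed in 8 of 27 settings, among them those without high-fat library 9 or chow library 18. Against chow, none of the 3 passed on the ketogenic diet, with 0.08, 0.06 and 0.04 for Mrpl12, Mrpl10 and Mrpl11. On the high-fat diet the values were -0.23, -0.11 and -0.15, again without a call. There Mrpl12 passed in 3 of 27 settings, with library totals only, the effective length offset and without high-fat library 9 (adjusted p down to 0.00951). Mrpl11 passed there without library 9 (0.0352), and ketogenic against chow with the effective length offset (0.0364). Mrpl45 rose by 0.25 ± 0.056 (adjusted p = 0.00323) and Mrpl9 by 0.21 (0.0118), both with all ketogenic livers above all high-fat livers. Without libraries 12 and 14 the adjusted p of Mrpl9 was 0.0597.

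Mrpl4 fell from 20.8, 22.1, 21.5, 19.2 and 19.8 CPM in high-fat livers to 15.5, 16.0, 16.2, 16.7 and 15.1 CPM in ketogenic livers (-0.38 ± 0.066, adjusted p = 4.24e-04). The groups did not overlap. Mrpl18 fell likewise, to 44.1, 48.0, 43.6, 46.4 and 48.8 CPM (-0.38 ± 0.063, adjusted p = 2.89e-04), with a chow mean of 51.6 CPM between the means of 46.2 and 60.1 CPM. Mrpl36 fell by 0.27 on the log2 scale (adjusted p = 0.0194) without overlap and Mrpl34 by 0.25 (0.0364) with overlap. The call of Mrpl36 was lost in 2 of 27 settings, library totals only and without ketogenic library 4. That of Mrpl34 was lost in 10, among them those without ketogenic library 3, 4 or 6 and without high-fat library 9, 10 or 11. Ketogenic livers lay wholly above high-fat livers for 7 members and wholly below for 3, where 9.3% and 7.73% of all genes did so and 17% in either direction. The calls of Mrpl1, Mrpl17, Mrpl50, Mrpl16, Mrpl45, Mrpl18 and Mrpl4 were kept under all 27 other settings. Without high-fat library 9 the number of rises went from 8 to 18. Without libraries 12 and 14 it was 5, and without ketogenic library 4 the falls went from 4 to 2. Scaling by library totals alone gave 17 rises and 2 falls among members, and moved all genes from 1826 higher and 1818 lower to 2305 and 960.

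**Figure D3:**
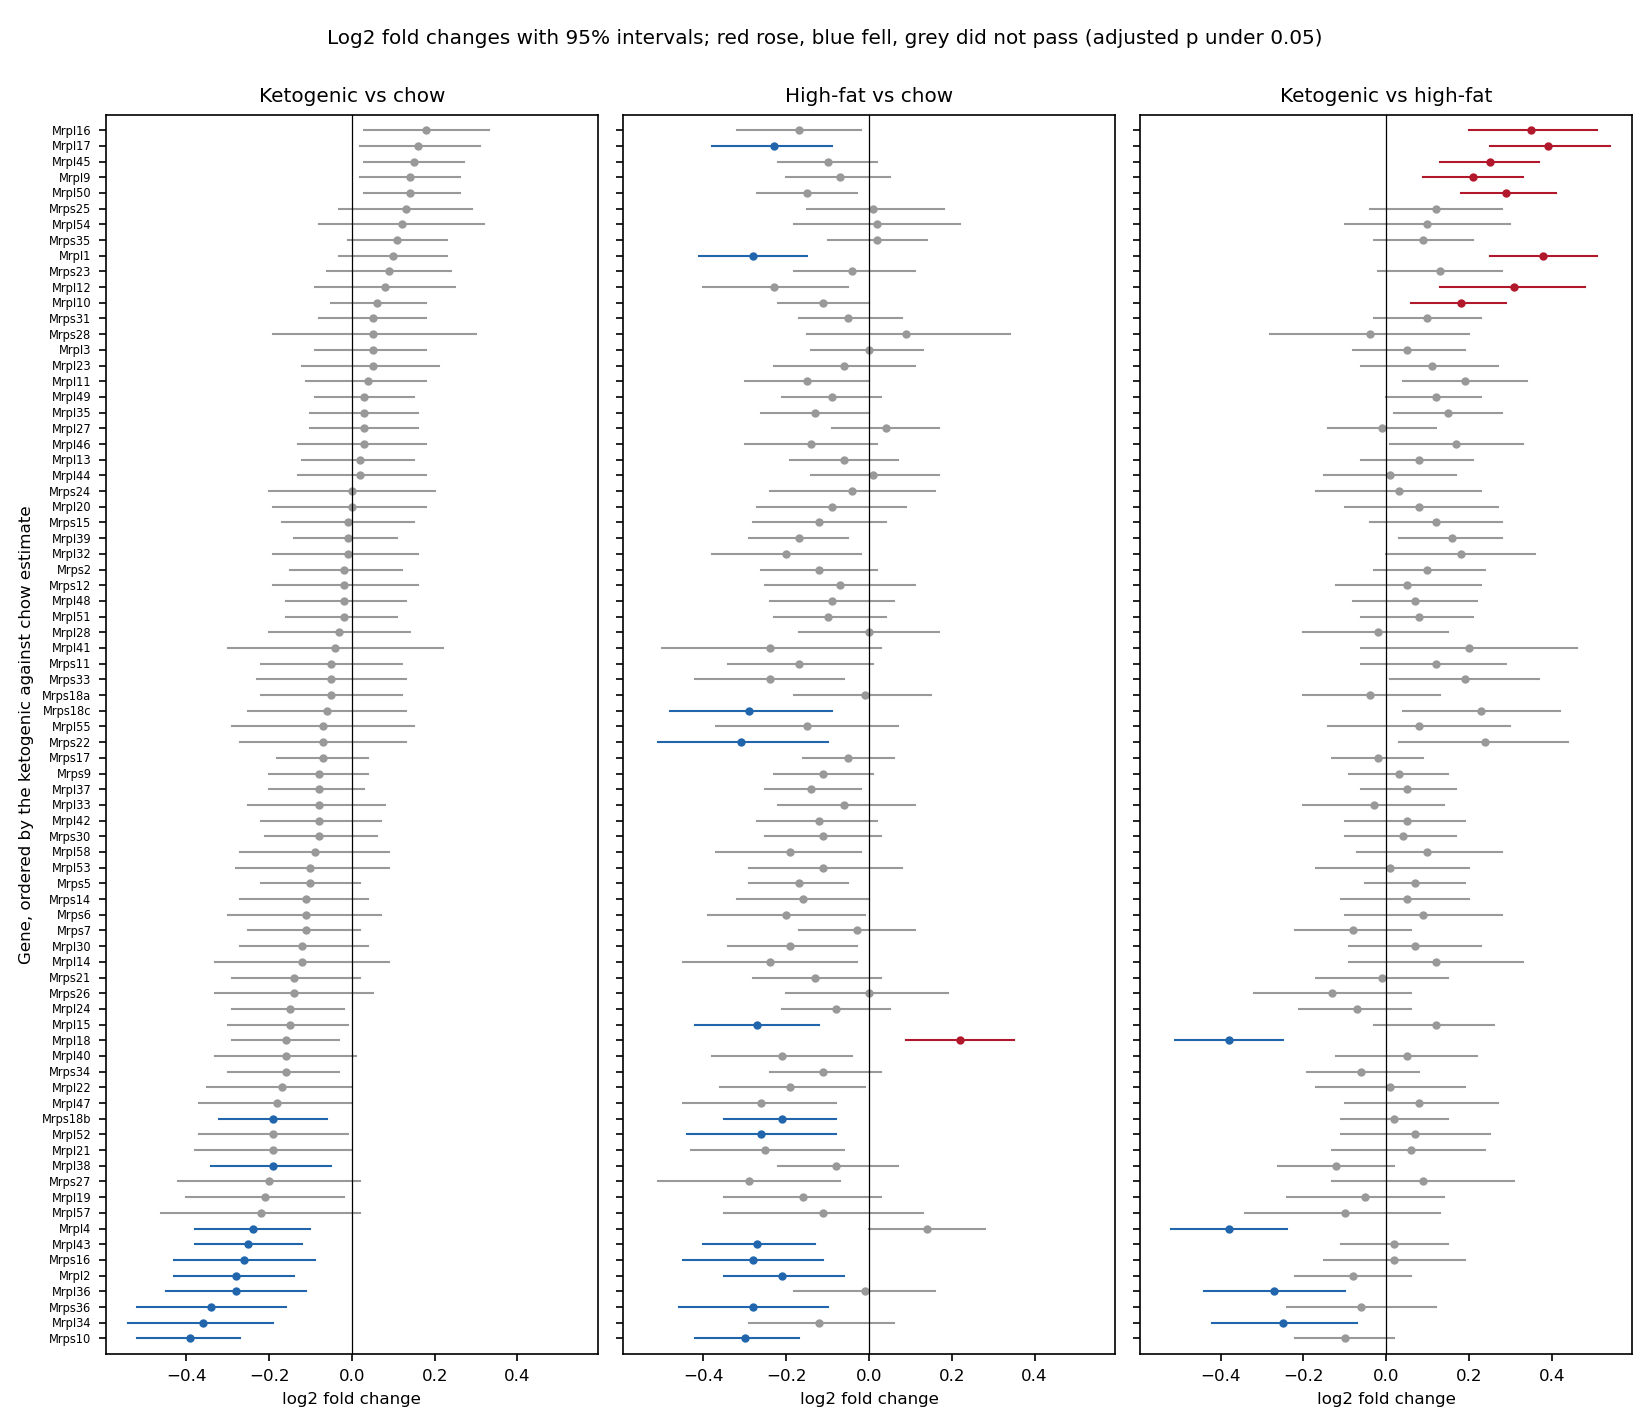
Log2 fold changes of all 78 genes in the 3 comparisons (points; bars are 95% confidence intervals), in the order of the ketogenic against chow estimate. Most intervals include 0, none reaches 1.5-fold, and the calls (red rose, blue fell) number 10, 13 and 12 from left to right.

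Some members with special roles had no call in any comparison with the main settings. Mrps12, at the decoding centre, had mean levels of 14.0, 13.5 and 14.2 CPM in ketogenic, high-fat and chow livers. Mrpl44, which carries a ribonuclease-like fold, had 16.3, 16.2 and 16.0 CPM, with changes of 0.02 ± 0.074 and 0.01 ± 0.075 against chow. Mrpl58, a peptidyl-tRNA hydrolase built into the large subunit, had 14.8, 13.7 and 15.7 CPM and no call. High-fat against chow it passed in 1 of 27 settings, without high-fat library 9 (adjusted p = 0.0412). Of the large subunit proteins with Mrps names, Mrps30 had 16.9, 16.5 and 17.9 CPM and Mrps18a 14.6, 15.0 and 15.1 CPM, also without a call. Mrps34, needed for the stability of the small subunit, had 18.8, 19.6 and 21.1 CPM and missed the threshold on the ketogenic diet (-0.16 ± 0.064, adjusted p = 0.0608). It passed there in 5 of 27 settings, with adjusted p down to 0.0211.

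Members with a bacterial counterpart and those found only in mitochondria had similar shares called lower against chow. Of all genes, 14.6% were called lower ketogenic against chow and 7.32% high-fat against chow. On the ketogenic diet 6 of 47 of the first kind and 3 of 30 of the second fell against chow, with medians of -0.07 and -0.06. In high-fat livers 7 of 47 and 4 of 30 fell and 1 of the first kind rose, with medians of -0.13 and -0.11. Ketogenic against high-fat, 6 of 47 of the first kind rose and 4 fell, or 21.3% called. Of the second kind 2 of 30 rose and 0 fell, or 6.67%, against 26.1% of all genes. At an unadjusted p under 0.05 these were 14 of 47 and 6 of 30. By structure, 6 of 51 large subunit genes and 3 of 26 small subunit genes fell on the ketogenic diet, and 6 of 51 and 5 of 26 on the high-fat diet. Ketogenic against high-fat, 8 of 51 large subunit genes rose and 4 fell, or 23.5% called. Of the 26 small subunit genes 0 were called there, with 3 at an unadjusted p under 0.05. These groups were described and the differences between them were not tested.

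The share of each transcript within a member was read from the same estimated counts. In 14 members most reads were assigned to transcripts that the annotation does not type as coding, and in Mrps24 the transcript with a retained intron took 92.45% of the reads in ketogenic, 93.51% in high-fat and 92.68% in chow livers. Mrpl3, a core protein of the large subunit, did not pass as a gene (17.7, 17.1 and 17.1 CPM in the order ketogenic, high-fat, chow). Its coding transcript Mrpl3-205 took 17.57 ± 2.18% of the gene's reads in ketogenic, 25.16 ± 1.3% in high-fat and 26.5 ± 2.3% in chow livers (SD, n = 5 each). Ketogenic livers, at 15.04 to 20.06%, lay below all chow livers, at 24.52 to 29.85%. Mrpl3-204, a transcript typed as subject to nonsense-mediated decay, took 44.9 ± 1.15%, 34.19 ± 3.29% and 38.22 ± 3.49%. Counting coding transcripts alone, the gene changed by -0.25 against chow (adjusted p = 0.0711) and by -0.29 against the high-fat diet (adjusted p = 0.0497). Such shares rest on how reads shared by overlapping transcripts were assigned, and Mrpl3 was chosen for this description after its values were seen.

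For 33 members another gene on the opposite strand starts within 1000 bases of the member's start. These 33 held 4 of the 10 falls on the ketogenic diet and a median of -0.08 there. Mrpl43 fell on the ketogenic diet while Twnk, the helicase of mitochondrial DNA, which starts 779 bases away, rose by 0.22 ± 0.054 (adjusted p = 0.00424). Mrpl18 rose on the high-fat diet while Tcp1, a subunit of a cytosolic chaperone that starts 644 bases away, fell (-0.22 ± 0.066, adjusted p = 0.0291). Mrpl2 fell on that diet while Klc4, 207 bases away, rose by 0.23 ± 0.067 (adjusted p = 0.024). Mrps18b fell there while Ppp1r10, 45 bases away, rose by 0.99 ± 0.127 (adjusted p = 1.26e-04). These 4 pairs were chosen after their values were seen. Exons of Mrpl43 and Twnk overlap, as do those of Mrpl18 and Tcp1. Outside these 4 pairs the same holds for the called members Mrpl36, with Ndufs6 (23.9 and 124 TPM, starts 29 bases apart), and Mrpl9, with Oaz3. The labels do not say whether counting used strand, so reads of the overlapping parts cannot be told apart.

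**Figure D4:**
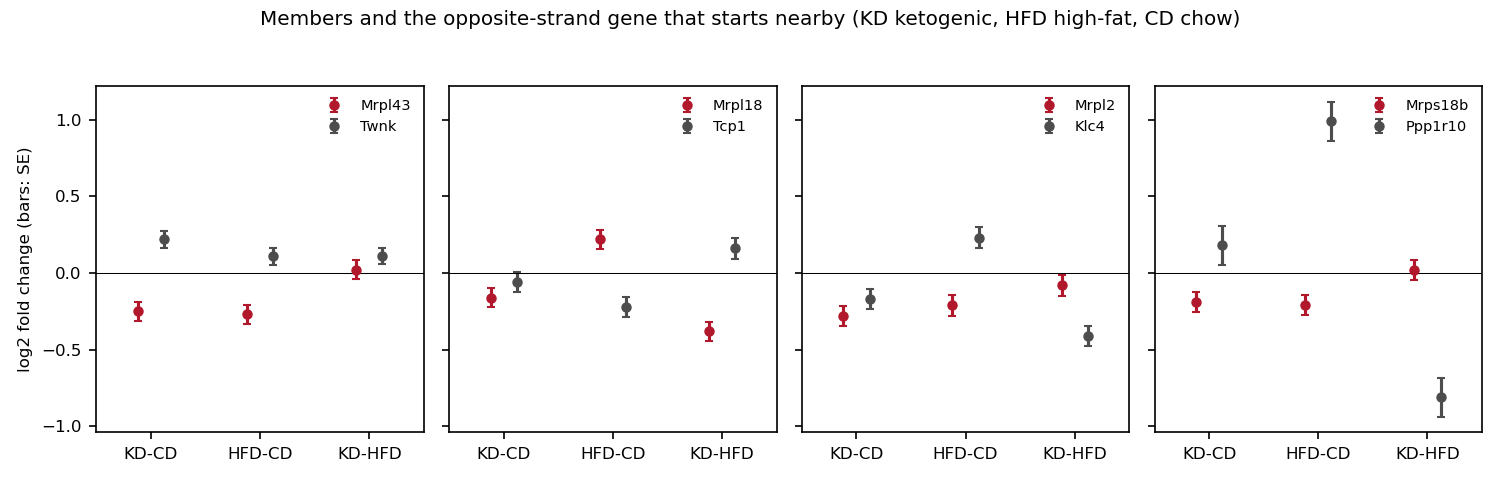
Log2 fold changes (points; bars are SE) of 4 members and of the opposite-strand gene that starts nearby, in the 3 comparisons. Mrps18b stays near its own small fall while Ppp1r10 reaches 0.99 in high-fat against chow livers.

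Genes that work with the mitochondrial ribosome were read from lists chosen by function. To set beside the list counts below, 30.8% of all genes were called ketogenic against chow (16.2% higher, 14.6% lower). The shares were 15.6% high-fat against chow (8.3% higher, 7.32% lower) and 26.1% ketogenic against high-fat (13.1% higher, 13% lower). Of 5 further ribosomal proteins without an Mrp name, Dap3, a GTP-binding protein of the small subunit, rose on the ketogenic diet (0.28 ± 0.077, adjusted p = 0.00992). Gadd45gip1, a large subunit protein, fell by 0.40 ± 0.081 on the log2 scale (adjusted p = 9.24e-04) and also fell on the high-fat diet (-0.32, adjusted p = 0.0114), where 0 of the 5 were called lower without libraries 12 and 14. Of 13 translation factors, 6 rose and 0 fell on the ketogenic diet against chow, with a median of 0.14. They included the elongation factors Gfm1 (0.38 ± 0.06, adjusted p = 1.12e-04) and Tufm (0.28 ± 0.057, adjusted p = 9.12e-04) and the recycling factor Gfm2 (0.19 ± 0.049, adjusted p = 0.00565). In high-fat livers edgeR's test called 0 of the 13, where 1 was higher and 2 lower at an unadjusted p under 0.05 and DESeq2 and limma-voom each called 1. Ketogenic livers had 5 of the 13 higher than high-fat livers, Gfm1 by 0.29 and Tufm by 0.29, and 3 of the 13 without libraries 12 and 14.

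Among 20 genes of mitochondrial tRNA charging, 6 rose and 0 fell on the ketogenic diet by edgeR's test, where 3 were lower at an unadjusted p under 0.05. DESeq2, the fit without high-fat library 9 and that with the length trend removed each called 1 lower, and limma-voom 0. On the high-fat diet 10% of the 20 were called and on the ketogenic diet 30%, against 15.6% and 30.8% of all genes. Gatb, which helps to make glutaminyl-tRNA in mitochondria, rose by 0.80 ± 0.068 (adjusted p = 8.80e-08), and Iars2 by 0.37 ± 0.059 (adjusted p = 1.07e-04). High-fat livers showed rises of Gatb (0.28) and Mars2 (0.48), and without libraries 12 and 14 there was 1 rise in place of 2. Of 29 ribosome assembly factors, 2 rose (Ddx28 by 0.26 and Trub2 by 0.30) and 4 fell on the ketogenic diet, Rpusd3 by 0.36 and Rbfa by 0.28 on the log2 scale. The share called was 20.7%, against 30.8% of all genes. The median of the 29 was -0.02, and it changed sign, to 0.06 and 0.04, when libraries were scaled by totals alone or with the effective length as offset. In high-fat livers Mterf3 (0.22) and Mettl17 (0.25) rose and edgeR's test called 0 of the 29 lower, with 3 lower at an unadjusted p under 0.05 and 0 by DESeq2 and limma-voom. Without high-fat library 9 there were 2 falls. The 2 rises became 0 without libraries 12 and 14, with library totals only and with the effective length offset, which also gave 1 fall.

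Of 23 genes that copy or express mitochondrial DNA, 8 rose and 1 fell on the ketogenic diet, with a median of 0.06. On the high-fat diet 3 rose and 1 fell, and without libraries 12 and 14 these were 1 and 0. Hsd17b10, a dehydrogenase that is also part of mitochondrial RNase P, rose by 0.65 ± 0.092 (adjusted p = 3.25e-05). Tfam, which packages mitochondrial DNA, rose by 0.24 ± 0.062 (adjusted p = 0.00600), and Ssbp1, the single-strand binding protein, fell by 0.32 on the log2 scale. Of 11 tested regulators of mitochondrial gene expression, 1 was called ketogenic against chow, a share of 9.09% against 30.8% of all genes. It was Esrrg, which rose (0.95 ± 0.24, adjusted p = 0.00584). High-fat against chow 1 rose and 1 fell, and ketogenic against high-fat 2 rose and 2 fell. Without libraries 12 and 14 these counts were 0 and 0, and 1 and 1. Ppargc1a did not pass ketogenic against chow (0.55 ± 0.21, adjusted p = 0.0656) but was higher than on the high-fat diet (0.81 ± 0.22, adjusted p = 0.0134). Nrf1, whose motif was counted above, changed by -0.02 ± 0.082, Gabpa, a subunit of GABP, by 0.04 ± 0.064, and Yy1 by 0.03 ± 0.054, none with a call against chow.

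The 13 protein-coding genes of mitochondrial DNA, which are the templates of this ribosome, were lower on the ketogenic diet than on chow in most cases. There 8 of them fell and 0 rose by edgeR's test (0 higher and 9 lower at an unadjusted p under 0.05, and 8 falls by DESeq2 and by limma-voom), with a median of -0.38. With library totals only 2 rose and 8 fell, and with the length trend removed 2 rose and 6 fell, with a median of -0.23. Cytochrome b (mt-Cytb) fell by 0.82 ± 0.093 (adjusted p = 3.10e-06) and mt-Nd4 by 0.59 ± 0.085 (adjusted p = 3.86e-05), both on the log2 scale. In high-fat livers edgeR's test called 0 of them, with 2 lower at an unadjusted p under 0.05, 2 falls by DESeq2 and 0 by limma-voom. With the length trend removed 1 rose there, and the median moved from -0.04 to 0.08. They took 9.8 ± 0.338% of the reads in ketogenic, 11.8 ± 0.758% in high-fat and 12.0 ± 0.255% in chow livers. The summed TPM of the members over that of these 13 genes was 0.0147 ± 8.72e-04, 0.0108 ± 7.77e-04 and 0.0116 ± 5.96e-04 in the same order, with the ketogenic livers above all others.

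Of the cytosolic ribosomal proteins, which build the other ribosome of the cell, 54 of 77 tested fell on the ketogenic diet and 60 of 77 on the high-fat diet, with medians of -0.28 and -0.32, against -0.07 and -0.12 for the mitochondrial set. With the length trend removed 40 and 45 fell, with medians of -0.16 and -0.17, against 0.04 and -0.04 for the mitochondrial set. Counts of rises among them were 0 by edgeR's test, at an unadjusted p under 0.05, by DESeq2 and by limma-voom. Without high-fat libraries 12 and 14 the high-fat count of falls was 20. Ketogenic livers had 1 of 77 called higher and 0 lower than high-fat livers by edgeR's test, with 2 higher and 1 lower at an unadjusted p under 0.05 and the same calls by DESeq2 and limma-voom. Without libraries 12 and 14 there were 0 rises and 7 falls, without library 9 there were 7 rises, and library totals only and the effective length offset gave 12 and 8 rises. The difference between the sets was not tested. Nuclear genes of the respiratory chain had 7 rises and 5 falls of 76 and a median of -0.03 on the ketogenic diet, and 4 falls with a median of -0.10 on the high-fat diet. The shares called were 15.8% and 5.26%, against 30.8% and 15.6% of all genes. Both medians changed sign with the length trend removed, to 0.10 and 0.04, and the first also with scaling by library totals alone or with the effective length as offset, to 0.05 in both. Ketogenic against chow, the counts were 28 rises and 3 falls with the length trend removed, 18 and 3 with library totals only and 13 and 4 with the effective length offset. High-fat against chow they were 6 and 1 with the length trend removed, 0 and 15 without library 9 and 0 and 2 without libraries 12 and 14.

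Of 16 genes listed as mitochondrial chaperones and proteases, 1 fell on the ketogenic diet and 9 rose, with a median of 0.19. Grpel2 (0.85 ± 0.092, adjusted p = 1.64e-06), Dnaja3 (0.49 ± 0.051, adjusted p = 1.05e-06) and the chaperonin Hspd1 (0.33 ± 0.081, adjusted p = 0.00435) were among them. High-fat livers had Dnaja3 higher by 0.18. Atf5, a transcription factor placed in this list, and Hspe1 fell there by 0.45 and 0.32 on the log2 scale. Without libraries 12 and 14 the high-fat livers had 0 rises and 1 fall among the 16. Of 30 genes of protein import, the route by which the members' proteins reach the mitochondrion, 5 rose and 4 fell on the ketogenic diet, and 0 rose and 2 fell on the high-fat diet (0 higher and 7 lower at an unadjusted p under 0.05, 5 falls by DESeq2, 2 by limma-voom). Without library 9 there were 7 falls and without libraries 12 and 14 there were 0, while the length trend removed gave 2 rises and 1 fall. On the high-fat diet 6.67% of the 30 were called and on the ketogenic diet 30%, against 15.6% and 30.8% of all genes. Pmpcb, a subunit of the protease that removes import signals, rose by 0.37 ± 0.056 (adjusted p = 7.32e-05), and Tomm40l fell by 1.38 ± 0.11 on the log2 scale (adjusted p = 3.37e-08).

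**Figure D5:**
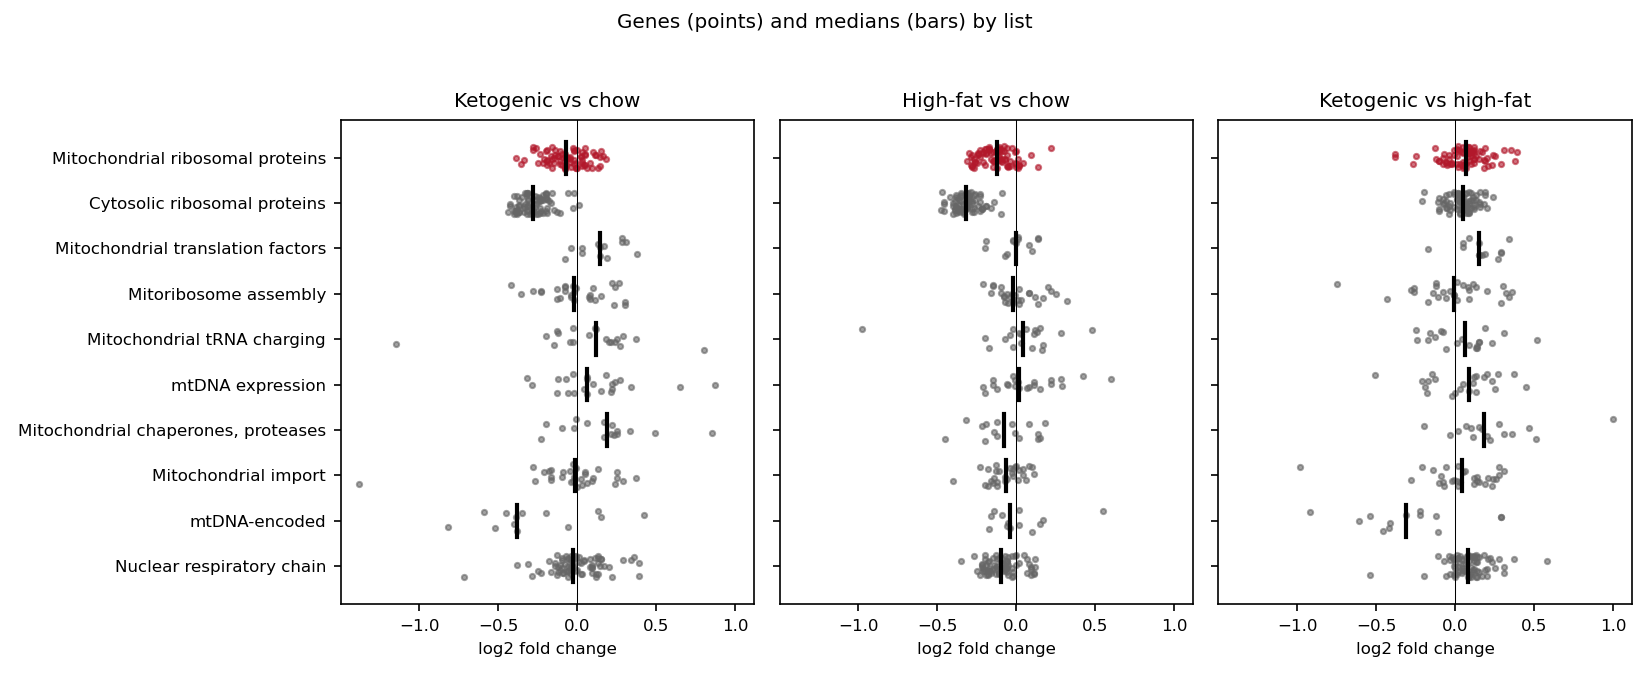
Log2 fold changes of the genes in each list (points) with the list's median (bar) in the 3 comparisons. The mitochondrial ribosomal proteins lie close around 0 with medians of -0.07, -0.12 and 0.07, the cytosolic ribosomal proteins lie lower in both comparisons with chow, and the genes of mitochondrial DNA lie lower in both comparisons of the ketogenic diet.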

How the data were processed

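The submitters' processing notes list the genome build GRCm38.p6 and the tools Trimmomatic 0.36, kallisto 0.44 and edgeR 3.28, without settings. Per the file headers, each deposited table gives an estimated count per transcript, as kallisto makes it, and TPM, which the authors' tool derived from that count, the effective length and the depth. Library strandedness is not stated there.

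Gene values are sums of these counts over the transcripts of GENCODE M21, which matched 105734 of 106332 transcripts, rounded to whole numbers. The 598 unmatched transcripts (0.184 to 0.223% of reads) were left out. After edgeR's filterByExpr (minimum count 10, total 15) 13967 genes were fitted with edgeR 4.0.16 (TMM, robust quasi-likelihood, 15 libraries, residual degrees of freedom 12), and p-values were adjusted by Benjamini-Hochberg over all of them. Replicate pairs differed by a chi-square per degree of freedom of 18.53 to 113.6, well above the counting noise of repeated sequencing of the same library. Such a value cannot tell libraries of the same mouse from libraries of different mice. The code was tested on simulated data. Alternatives used DESeq2 1.42.0 and limma 3.58.1 in R 4.3.3. Python 3.11.15, pandas 2.3.3, numpy 2.4.6 and matplotlib 3.10.9 were also used. Promoter sequences came from RefSeq in build GRCm38.p6.

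Genes, lists and tests were chosen with earlier results of these data known. Named members are the 6 largest called changes in each direction of a comparison, a panel chosen for role, and the 3 highest and 3 lowest in TPM, with up to 3 genes per pathway list and comparison. Other called members, Mrps9, the opposite-strand pairs, the regulators Nrf1, Gabpa and Yy1, Ppargc1a against chow, some list genes outside that number and the 4 printed promoters were chosen after their values were seen.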

Additional observations from a re-analysis of the deposited data

Results flagged for a closer look

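For the named members and their summed share of reads, 93 groups of 5 livers were examined for a library whose distance to its neighbour took up over 0.71 of the group's range. Chance flags about 1 in 20 such groups, and 4 of the 93 were found. Mrpl11 was at 15.8 CPM in high-fat library 9, where the next library had 13.5 and the lowest 12.9. Mrpl36 was at 21.4 CPM in the same library, with 17.5 next and 16.5 lowest. Mrpl30 was at 42.1 CPM in chow library 15, with 37.6 next and 36.0 lowest. Mrps12 was at 12.9 CPM in ketogenic library 6, with 14.1 next and 14.4 highest.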

How the results depend on the processing

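No paired analysis was possible because the label numbers of the 3 diets do not recur from one diet to another. Each comparison was repeated under 27 other settings. The lowest read count of a member in a library was 184, and the effect of depth on the calls was not tested.

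Ketogenic against chow, 0 rises became 2 with DESeq2, 6 with library totals only, 3 with the other diet left out, 1 on coding transcripts only, 5 with the effective length as offset, 8 with the length trend removed, 1 with the GC trend removed, 1 with limma-voom and 2 without high-fat libraries 12 and 14. The 10 falls became 6 with library totals only and 5 with the effective length offset. Leaving out each library in turn gave 0 to 3 rises and 7 to 11 falls. The effective length offset moved the calls over all genes from 2258 higher and 2038 lower to 2590 and 1235.

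High-fat against chow, the 1 rise became 0 with ketogenic livers left out, 0 with the effective length offset, 3 with the length trend removed and 0 without libraries 12 and 14. The 12 falls became 6 with ketogenic livers left out, 5 on coding transcripts only, 3 with the length trend removed and 2 without libraries 12 and 14. Leaving out each library gave 0 to 1 rises and 4 to 29 falls. Without libraries 12 and 14 the calls over all genes were 1059 (549 higher, 510 lower). With the effective length offset 616 genes were higher and 892 lower, against 1159 and 1023.

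Ketogenic against high-fat, the 8 rises became 17 with library totals only, 18 with the effective length offset, 13 with the length trend removed and 5 without libraries 12 and 14. The 4 falls became 2 with library totals only. Leaving out each library gave 7 to 18 rises and 2 to 4 falls. The effective length offset moved all genes from 1826 higher and 1818 lower to 2384 and 850. On coding transcripts only, the summed share of reads was 0.142% in ketogenic, 0.128% in high-fat and 0.138% in chow livers. The cause of these shifts was not tested.

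No called member changed direction. The log2 values that changed sign had no call with the main settings, and one, Mrpl3 in ketogenic against high-fat livers, had an adjusted p of 0.0497 after the change. Ketogenic against chow, library totals only gave 0.06 for Mrps12, 0.03 for Mrps18a and 0.00 for Mrps22, and the effective length offset gave 0.04 for Mrps18a. There the length trend removed gave 0.04 for the median of the members, 0.04 for Mrpl58, 0.10 for Mrps12, 0.05 for Mrps18a and 0.01 for Mrps22. The GC trend removed gave 0.08 for Mrps12 and 0.01 for Mrps18a, and coding transcripts only gave -0.25 for Mrpl3. Leaving out each library gave -0.01 to 0.07 for Mrpl11, -0.04 to 0.07 for Mrpl44, -0.05 to 0.04 for Mrps12 and -0.08 to 0.00 for Mrps18a.

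High-fat against chow, Mrpl3 was 0.01 with library totals only, 0.04 on coding transcripts only, 0.08 with the effective length offset and 0.07 with the length trend removed. Mrpl44 was -0.01 with the effective length offset, -0.00 with the GC trend removed and -0.01 without libraries 12 and 14. Mrps12 was 0.07 and Mrps18a 0.09 with the length trend removed, and 0.03 and 0.05 without libraries 12 and 14. Leaving out each library gave -0.03 to 0.03 for Mrpl3, -0.05 to 0.05 for Mrpl44 and -0.08 to 0.04 for Mrps18a.

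Ketogenic against high-fat, coding transcripts only gave -0.29 for Mrpl3 and -0.01 for Mrpl44, and leaving out libraries 12 and 14 gave -0.02 for Mrpl58 and -0.06 for Mrps12. Library totals only gave 0.03 for Mrps18a, 0.01 for Mrps34 and 0.01 for Mrps36, and the effective length offset gave 0.07, 0.06 and 0.03. The GC trend removed gave 0.02 for Mrps18a, -0.00 for Mrps30 and 0.08 for Mrps34. Leaving out each library gave -0.02 to 0.05 for Mrpl44, -0.00 to 0.10 for Mrps12 and -0.07 to 0.03 for Mrps18a.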
